A study of Homo sapiens with 24 samples.

Results

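The 10 genes described here store iron as ferritin, break down heme and move iron in and out of the cell. They were taken by name: the ferritin chains FTH1 and FTL, the ferritin cargo receptor NCOA4, the heme oxygenases HMOX1 and HMOX2, the biliverdin reductases BLVRA and BLVRB, the transferrin receptor TFRC, the iron exporter SLC40A1 and the iron sensor IREB2. All 10 have a row among the 60504 rows of the expression table. The study silenced GCDH, the mitochondrial glutaryl-CoA dehydrogenase of lysine breakdown, with siRNA (siGCDH), set it against a control siRNA (siControl), and harvested cells 48 h after transfection. The series title asks about melanoma and the antioxidant factor NRF2. The 24 libraries form 8 groups of 3: siGCDH and siControl in A375 melanoma cells (batch 2), in A375 cells (batch 1), in SK-Hep1 cells, labelled as liver cancer, and in SKBR3 cells, labelled as breast cancer. Batch 1 was made with a 3' tag kit and the other 18 libraries with a full-length poly(A) kit, so levels are not compared between the kits. Cells of each group were seeded in triplicate wells, so p-values measure the spread between wells, which may be technical. The labels name no siRNA sequence and no second siRNA.

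Ferritin is a shell built from heavy chains, which oxidise iron, and light chains, which help the iron core form. NCOA4 carries ferritin to the lysosome, where the iron is released. Heme oxygenase opens heme to biliverdin, iron and carbon monoxide, and biliverdin reductase turns biliverdin into bilirubin. TFRC brings in iron bound to transferrin and SLC40A1, ferroportin, lets iron out. Iron-regulatory proteins, among them the IREB2 product IRP2, bind a hairpin called the iron-responsive element: at the start of a ferritin or ferroportin transcript it holds back translation, and at the end of the TFRC transcript it protects the RNA. FTH1, FTL and HMOX1 are also known targets of NRF2, and BACH1 represses them.

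The elements are shown because they set the TFRC transcript apart from the ferritin transcripts: 5' UTR in FTL and SLC40A1, 3' UTR in TFRC. The letters are in lower case, 5′ to 3′ along the transcript, and the capitals mark the loop CAGTGN. The pattern searched was a bulged C, a stem of 5 bases, the loop CAGTGN and 5 bases that pair with the stem, with G-T pairs allowed, on the sense strand of GENCODE 29 coding transcripts, and 30 bases are shown.
FTL, chr19:48965335-48965364, hg38, plus strand: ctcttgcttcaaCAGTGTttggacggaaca
SLC40A1, chr2:189580660-189580689, hg38, minus strand: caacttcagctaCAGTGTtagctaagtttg
TFRC element 1, chr3:196050978-196051007, hg38, minus strand: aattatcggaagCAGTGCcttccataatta
TFRC element 2, chr3:196050574-196050603, hg38, minus strand: cattatcgggagCAGTGTcttccataatgt
TFRC element 3, chr3:196050509-196050538, hg38, minus strand: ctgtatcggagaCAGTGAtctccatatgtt
TFRC element 4, chr3:196050462-196050491, hg38, minus strand: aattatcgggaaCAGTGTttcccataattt
The 5' UTR of FTH1 (chr11:61967573-61967602, minus strand) also held a match. Over all genes, 0.163% had a match in a 5' UTR (31 of 19014) and 0.669% in a 3' UTR (128 of 19128). The search misses elements with another loop or an imperfect stem, so the numbered matches in TFRC need not be all of its elements. A match describes letters and is no measurement of binding.

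The values are TPM, transcript abundances scaled for length and to a fixed total per library, which keep no read totals, so the sequencing depth is unknown. Batch 1 of A375 is length-scaled too, although a 3' tag kit reads transcript ends. Levels of different genes there, and so the level of its FTH1 to FTL ratio, may be distorted. Changes are siGCDH minus siControl in log2(TPM + 1), which understates changes of genes at a few TPM, and a gene was called at an adjusted p under 0.05 (limma, Benjamini-Hochberg over all genes of the comparison). GCDH itself averaged 3.72 ± 0.27 TPM in siGCDH A375 batch 2 and 20.9 ± 1.71 TPM in siControl (SD, n = 3 each). The same means were 0.917 ± 0.60 and 4.41 ± 2.48 TPM in A375 batch 1, 2.76 ± 0.50 and 9.41 ± 0.41 TPM in SK-Hep1, and 5.94 ± 1.52 and 22.5 ± 0.40 TPM in SKBR3-labelled cells. The groups did not overlap in any of the 4 pairs, and GCDH was called lower in all but A375 batch 1 (adjusted p = 0.118).

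The labels were checked against marker genes. The melanocyte factor SOX10 averaged 530 TPM in siGCDH and 457 TPM in siControl A375 batch 2. The pigment genes PMEL, MLANA, TYR, DCT and TYRP1 stayed under 1 TPM on average there, which left 3 of 8 melanocyte genes at 1 TPM or more in each group. In A375 batch 1 SOX10 averaged 113 TPM in siGCDH (4 of 8 genes at 1 TPM or more) and 148 TPM in siControl (3 of 8). ALB, the hepatocyte albumin, was listed at 0 in both SK-Hep1 groups. The hepatocyte list had 2 of 8 genes at 1 TPM or more there in siGCDH and 1 of 8 in siControl. SERPINA1 was the highest of them, at 34.9 and 9.59 TPM. Of 6 endothelial genes, only ENG reached 1 TPM on average in SK-Hep1 (15.3 TPM in siGCDH and 41.4 TPM in siControl). The hepatocyte list thus gave the liver label little backing. The SKBR3-labelled libraries went against their label: KRT19 averaged 0.12 TPM in siGCDH and 0.227 TPM in siControl, and ERBB2, which SKBR3 is known to amplify, 41.6 and 25.5 TPM. The summed breast epithelial list was 92.7 and 59.2 TPM there (5 of 8 genes at 1 TPM or more in each), against 3414 and 6377 TPM in SK-Hep1 (7 of 8 in each). The keratins KRT8, KRT18 and KRT19 made up most of the SK-Hep1 sums. They averaged 949, 1109 and 1275 TPM in siGCDH and 2317, 2687 and 1262 TPM in siControl. CDH1 was listed at 0 in both SK-Hep1 groups. The part of these marker values in the changes below was not tested.

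In A375 batch 2, GCDH silencing went with lower ferritin, lower TFRC and lower biliverdin reductases, and with higher HMOX1. In these bulk libraries, less RNA per cell and fewer expressing cells cannot be told apart. Of 9 genes tested, 5 fell (FTH1, FTL, BLVRA, BLVRB and TFRC), HMOX1 alone rose, and NCOA4, HMOX2 and IREB2 were not called. Of all genes tested, 15.7% were called lower and 17.9% higher in the same comparison. FTH1, FTL and TFRC fell in A375 batch 1 and 6 of 9 were not called, where 6.73% of all genes were lower and 1.18% higher. SLC40A1 was below the filter of 1 TPM on average in both A375 batches.

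In SK-Hep1 the pattern had the other sign for ferritin, the reductases and HMOX1. There 7 of 10 rose (FTH1, FTL, NCOA4, HMOX2, BLVRA, BLVRB and SLC40A1), HMOX1 alone fell, and TFRC and IREB2 were not called, beside 37.3% of all genes higher and 18.2% lower. In SKBR3-labelled cells 6 of 10 rose (FTH1, FTL, NCOA4, BLVRA, BLVRB and SLC40A1), HMOX1 and HMOX2 fell, and TFRC and IREB2 were not called, beside 47.3% of all genes higher and 14.7% lower. Under median scaling the SKBR3-labelled count was 4 higher (NCOA4, BLVRA, BLVRB and SLC40A1) and 5 lower, with FTH1, TFRC and IREB2 among the lower. The median change of all genes was 0.02 in A375 batch 2, -0.20 in A375 batch 1, 0.18 in SK-Hep1 and 0.29 in SKBR3-labelled cells, and changes are also given relative to it. With TPM scaled to a common median, calls over all genes were 207 higher and 294 lower in A375 batch 1, in place of 152 and 866. They were 4197 and 3343 in SK-Hep1, in place of 5432 and 2644, and 4995 and 4171 in SKBR3-labelled cells, in place of 7805 and 2431.

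**Figure D1:**
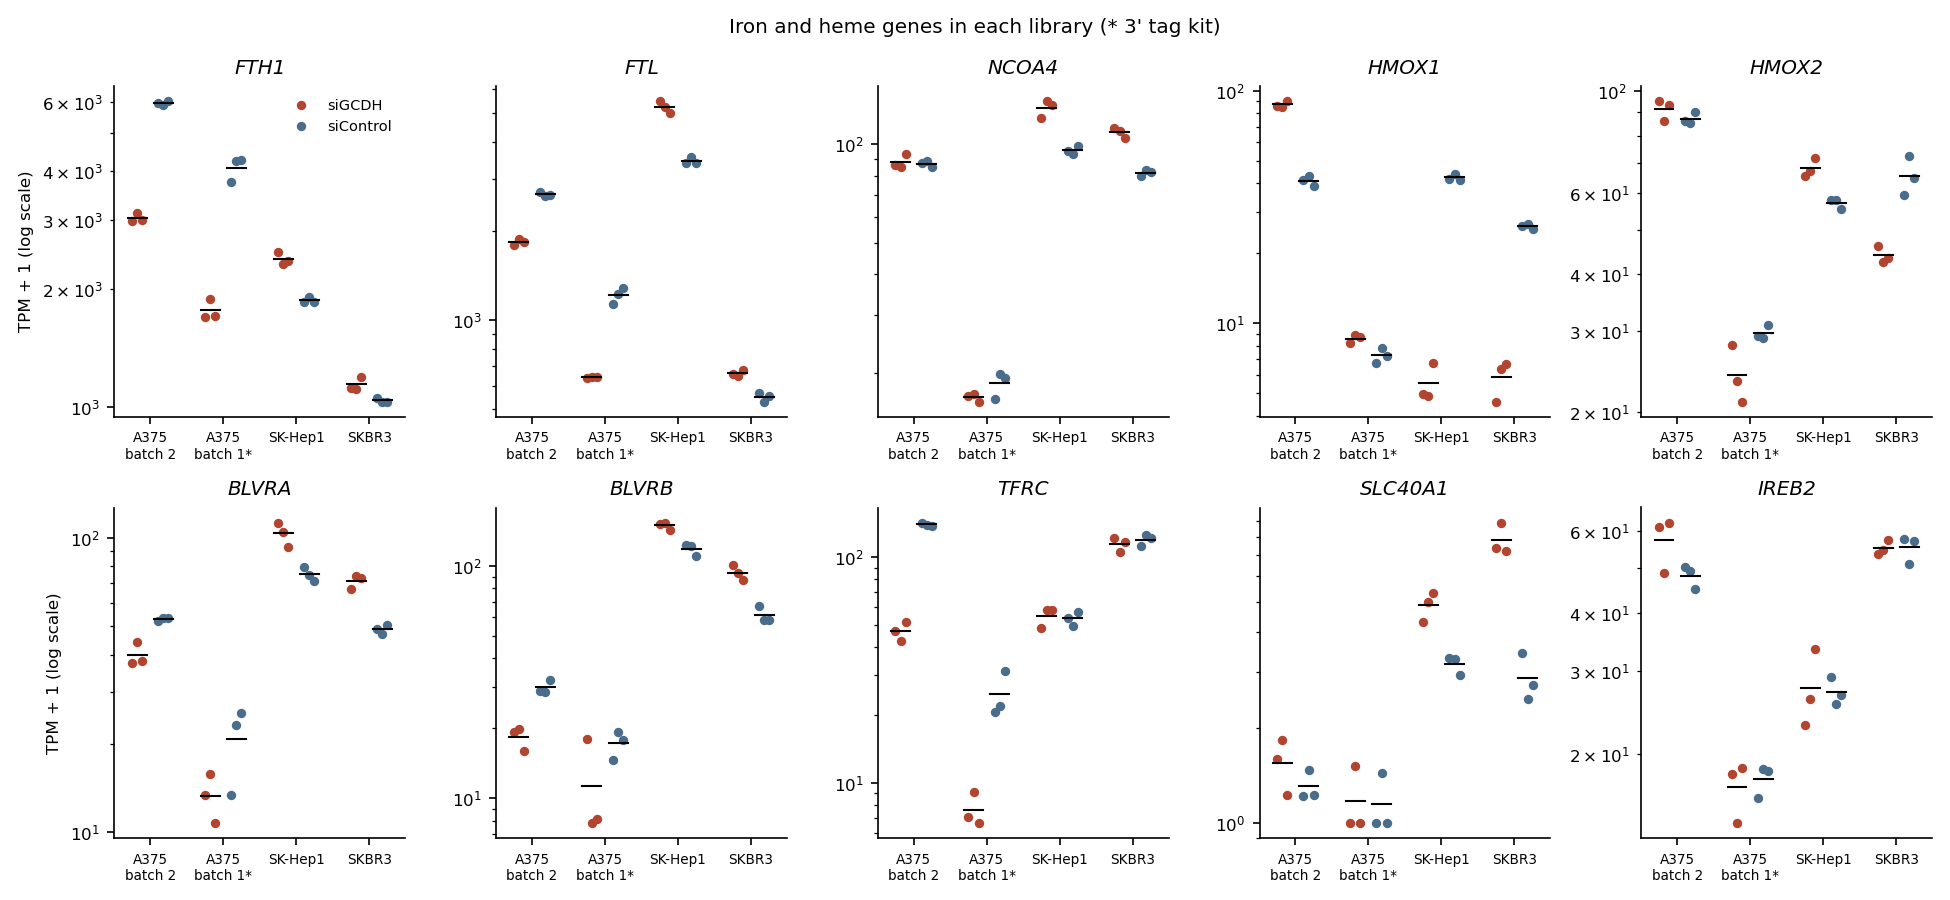
TPM + 1 of the 10 genes on a log axis, by line and batch; each point is a library, siGCDH left of siControl, and black lines are group means. HMOX1 stands at 84.5 to 89.3 TPM in siGCDH A375 batch 2, above every siControl library there, and at 3.86 to 5.78 TPM in siGCDH SK-Hep1, below every siControl library.

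FTH1, the heavy chain, was among the most abundant transcripts of A375 cells. It had 2988, 3133 and 3007 TPM in siGCDH A375 batch 2, against 5967, 5895 and 6034 TPM in siControl. It had 1700, 1891 and 1705 TPM in siGCDH A375 batch 1, against 3745, 4245 and 4259 TPM in siControl. In both batches every siGCDH library lay below every siControl library. FTH1 fell by 0.97 in batch 2 (log2; SE 0.02, adjusted p = 1.01e-06) and by 1.21 in batch 1 (SE 0.07, adjusted p = 0.000661). Its mean level ranked 28th of all rows in siGCDH batch 2, against the 5th place in siControl. In SK-Hep1, FTH1 had 2486, 2314 and 2361 TPM in siGCDH, against 1853, 1909 and 1857 TPM in siControl. In SKBR3-labelled cells it had 1122, 1116 and 1193 TPM in siGCDH, against 1058, 1033 and 1034 TPM in siControl. The groups were apart in both lines, with siGCDH the higher. The log2 change was 0.35 in SK-Hep1 (SE 0.03, adjusted p = 0.000105), or 0.17 relative to the median gene. In SKBR3-labelled cells it was 0.13 (SE 0.03, adjusted p = 0.00916), but -0.16 relative to the median gene; under median scaling it was -0.11 (adjusted p = 0.0250), so the direction there turns with the scaling.

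FTL, the light chain, was lower with siGCDH in A375 and, in TPM as deposited, higher in the other lines. It had 1785, 1883 and 1837 TPM in siGCDH A375 batch 2, against 2706, 2624 and 2632 TPM in siControl. It had 637, 643 and 640.1 TPM in siGCDH A375 batch 1, against 1131, 1227 and 1281 TPM in siControl. The siGCDH libraries were the lower in both batches, without overlap. The log2 change was -0.53 in batch 2 (SE 0.03, adjusted p = 1.84e-05) and -0.92 in batch 1 (SE 0.07, adjusted p = 0.00180; 0.0586 without the mean-variance trend). In SK-Hep1 FTL had 5481, 5223 and 4988 TPM in siGCDH, against 3379, 3538 and 3389 TPM in siControl, and it was the more abundant chain there. It had 655, 647 and 680.1 TPM in siGCDH SKBR3-labelled cells, against 568, 529 and 555 TPM in siControl. Every siGCDH library of these lines was above its siControl libraries. FTL rose by 0.61 in SK-Hep1 (SE 0.04, adjusted p = 1.35e-05), or 0.42 relative to the median gene. It rose by 0.26 in SKBR3-labelled cells (SE 0.04, adjusted p = 0.000685), but the value relative to the median gene was -0.03, and the call was lost under median scaling (0.02, adjusted p = 0.642).

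Both chains together took 0.488% of all TPM in siGCDH A375 batch 2, against 0.862% in siControl. The shares were 0.241% and 0.530% in A375 batch 1, 0.762% and 0.531% in SK-Hep1, and 0.181% and 0.159% in SKBR3-labelled cells. The ratio of FTH1 to FTL was lower with siGCDH in all 4 pairs, whichever way ferritin went. It averaged 1.66 in siGCDH and 2.25 in siControl in A375 batch 2, 2.76 and 3.36 in A375 batch 1, 0.457 and 0.545 in SK-Hep1, and 1.73 and 1.89 in SKBR3-labelled cells. The groups did not overlap in any pair. The log2 differences of the ratio were -0.44 (SE 0.019), -0.29 (SE 0.051), -0.26 (SE 0.029) and -0.13 (SE 0.025) in that order, each with p = 0.1 by an exact two-sided permutation test, the smallest that 3 libraries against 3 allow. This ratio does not change with a scaling of the whole library. Ferritin has many processed copies in the genome, and reads can be split among them. The 25 FTH1P and 16 FTLP rows of the table together held under 1% of the TPM of their parent gene in 15 of 16 group values; FTLP rows held 2.88% of FTL in siGCDH SKBR3-labelled cells, against 0.779% in siControl.

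**Figure D2:**
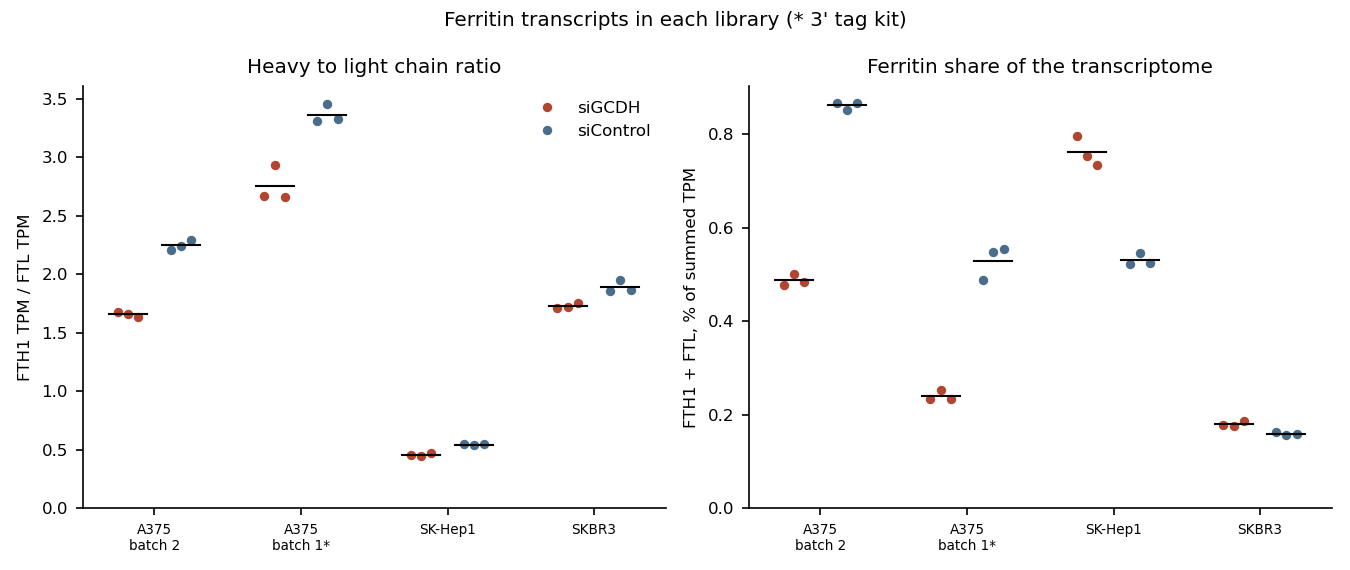
Left, the ratio of FTH1 TPM to FTL TPM; right, FTH1 and FTL as a percentage of summed TPM. Points are libraries, siGCDH left of siControl, and lines are group means; the ratio is lower in every siGCDH group, with 0.457 against 0.545 in SK-Hep1, while the ferritin share is lower in A375 and higher in SK-Hep1.

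NCOA4, which delivers ferritin for breakdown, rose in 2 of the lines. It had 119, 135 and 131 TPM in siGCDH SK-Hep1, against 94.6, 92.1 and 97.9 TPM in siControl (log2 change 0.43, SE 0.06, adjusted p = 0.000532). In SKBR3-labelled cells it had 111, 109 and 104 TPM in siGCDH, against 78.8, 82.3 and 81.0 TPM in siControl (0.41, SE 0.05, adjusted p = 0.000223). Neither pair overlapped, and the changes relative to the median gene were 0.25 and 0.12. In A375 the NCOA4 groups overlapped, with changes of 0.02 (95% interval -0.10 to 0.14) in batch 2 and -0.14 (-0.54 to 0.27) in batch 1.

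HMOX1, the inducible heme oxygenase, had the largest spread of changes of the 10 genes. In A375 batch 2 it had 85.0, 84.5 and 89.3 TPM in siGCDH, against 40.3, 41.8 and 37.9 TPM in siControl. Its mean was 2.16 times that of siControl, a log2 change of 1.09 (SE 0.06, adjusted p = 2.15e-05). In SK-Hep1 it had 3.98, 3.86 and 5.78 TPM in siGCDH, against 40.9, 43.0 and 40.2 TPM in siControl. The siControl mean was 9.11 times the siGCDH mean, and the log2 change was -2.95 (SE 0.13, adjusted p = 2.66e-06). SKBR3-labelled cells had 3.60, 5.36 and 5.67 TPM in siGCDH, against 25.2, 25.7 and 24.4 TPM in siControl (-2.17, SE 0.15, adjusted p = 2.29e-05). All 3 pairs were far apart, upward in A375 and downward in the other lines, while the siControl means of A375 batch 2 and SK-Hep1 were 40.0 and 41.4 TPM. In A375 batch 1, where the gene was low, HMOX1 had 7.19, 7.88 and 7.72 TPM in siGCDH, against 5.76, 6.87 and 6.22 TPM in siControl. The groups did not overlap, but the change of 0.24 was not called (95% interval -0.25 to 0.73, adjusted p = 0.525).

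HMOX2, the constitutive heme oxygenase, went different ways in SK-Hep1 and SKBR3-labelled cells. It had 45.1, 41.4 and 42.3 TPM in siGCDH SKBR3-labelled cells, against 58.5, 71.5 and 63.7 TPM in siControl, and fell by 0.57 (SE 0.08, adjusted p = 0.000654). It had 64.4, 66.2 and 70.6 TPM in siGCDH SK-Hep1, against 56.9, 57.02 and 54.5 TPM in siControl, and the change of 0.25 was called (adjusted p = 0.00689; 0.0690 under median scaling). In A375 the changes of 0.07 (95% interval -0.05 to 0.20) and -0.31 (-0.71 to 0.09) in batches 2 and 1 were not called. HMOX2 overlaps NMRAL1 on the opposite strand, which reached 103 TPM, and the strand setting of the counting is not given in the sources used here.

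Both biliverdin reductases fell in A375 batch 2 and rose in SK-Hep1 and SKBR3-labelled cells. BLVRA had 36.6, 43.2 and 37.3 TPM in siGCDH A375 batch 2, against 51.2, 52.5 and 52.2 TPM in siControl (-0.41, SE 0.07, adjusted p = 0.00498; 0.118 in a joint fit of all libraries). BLVRB had 18.3, 19.0 and 15.0 TPM in siGCDH, against 28.1, 27.7 and 31.5 TPM in siControl (-0.71, SE 0.10, adjusted p = 0.00193). Neither gene's groups overlapped. In SK-Hep1, BLVRA had 112, 104 and 92.3 TPM in siGCDH, against 78.6, 73.9 and 70.4 TPM in siControl (0.46, SE 0.08, adjusted p = 0.00178). BLVRB had 151, 153 and 142 TPM in siGCDH SK-Hep1, against 122, 121 and 109 TPM in siControl (0.34, SE 0.06, adjusted p = 0.00196; 0.229 in the joint fit). In SKBR3-labelled cells the changes were 0.55 (SE 0.06, adjusted p = 0.000189) for BLVRA and 0.61 (SE 0.08, adjusted p = 0.000383) for BLVRB, again without overlap, and 0.25 and 0.32 relative to the median gene. In A375 batch 1 the libraries of both genes overlapped and the changes of -0.60 (95% interval -1.28 to 0.07) and -0.71 (-1.51 to 0.09) were not called.

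TFRC, the receptor for iron uptake, fell in A375 in both batches. It had 45.9, 41.5 and 50.6 TPM in siGCDH A375 batch 2, against 141, 137 and 137 TPM in siControl. It had 6.08, 8.16 and 5.63 TPM in siGCDH A375 batch 1, against 19.7, 21.03 and 30.4 TPM in siControl. No siGCDH library reached its lowest siControl library. The siControl mean was 3.01 times the siGCDH mean in batch 2 (-1.57, SE 0.07, adjusted p = 1.41e-05) and 3.58 times in batch 1 (-1.69, SE 0.24, adjusted p = 0.0102; 0.0510 without the mean-variance trend). In SK-Hep1 it had 47.3, 57.4 and 57.4 TPM in siGCDH, against 52.9, 48.7 and 56.2 TPM in siControl. SKBR3-labelled cells had 120.2, 105 and 116 TPM in siGCDH, against 111, 124 and 120.4 TPM in siControl. Both pairs overlapped, with changes of 0.04 (95% interval -0.18 to 0.25) and -0.06 (-0.22 to 0.09). Under median scaling the SKBR3-labelled value was -0.30 and was called (adjusted p = 0.00464).

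The TFRC 3' UTR also holds the 7 letters ACTGAGA, shown because earlier work on these data found this motif in many transcripts that were lower in A375, so it is no independent evidence here. The capitals mark it.
TFRC, chr3:196051058-196051087, hg38, minus strand: gtccttttggcACTGAGAtatttattgttt
None of the other 9 genes had it in the 3' UTR, and 14.1% of all genes did. The longest 3' UTR of each gene was 3313 bases in IREB2, 2658 in TFRC, 1504 in NCOA4 and 1299 in SLC40A1. It was 107 bases in BLVRA, 124 in BLVRB, 143 in FTL, 442 in FTH1, 591 in HMOX2 and 616 in HMOX1. The genes with shorter 3' UTRs than TFRC had less room for a match, but IREB2, with a longer one, lacked ACTGAGA too. The 7 letters CTGAGAA, also searched, were found in IREB2 and not in TFRC, and in 19.6% of all genes. In A375 batch 2 the median change of genes with ACTGAGA was -0.12 and 29.4% were called lower, against 0.03 and 16.4% of genes without it. The batch 1 medians were -0.25 and -0.21, with 9.72% and 7.09% called lower. In SK-Hep1 they were 0.17 and 0.15, with 20.7% called lower in each, and in SKBR3-labelled cells 0.21 and 0.22, with 17.3% and 18.3%. Genes with and without ACTGAGA were not matched for 3' UTR length, and no such split was made for CTGAGAA. Both motifs were searched as possible matches to the seed, the short stretch by which an siRNA can pair with other transcripts. The labels give no siRNA sequence to check this against. With no other siRNA against GCDH named, loss of GCDH and other effects of the siRNA cannot be told apart. Whether the motif bears on TFRC was not tested.

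SLC40A1, the iron exporter, was a low transcript that rose in SK-Hep1 and SKBR3-labelled cells. It had 6.37, 7.87 and 6.20 TPM in siGCDH SKBR3-labelled cells, against 2.44, 1.47 and 1.72 TPM in siControl (1.45, SE 0.17, adjusted p = 0.000292). It had 3.31, 4.0 and 4.31 TPM in siGCDH SK-Hep1, against 2.33, 2.29 and 1.94 TPM in siControl (0.61, SE 0.15, adjusted p = 0.0112; 0.0572 after quantile normalization). Neither pair overlapped. In A375 batch 2 it lay between 0.23 and 0.83 TPM in siGCDH and between 0.22 and 0.47 TPM in siControl, too low to test. In batch 1 it was listed at 0 in 2 of 3 libraries of each group, with 0.52 TPM in the other siGCDH library and 0.44 TPM in the other siControl library.

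IREB2, which encodes the iron sensor IRP2, was not called in any pair. It had 60.02, 47.8 and 61.5 TPM in siGCDH A375 batch 2, against 49.1, 48.1 and 44.1 TPM in siControl, and the groups overlapped through the second siGCDH library. The change was 0.25 (95% interval 0.01 to 0.49, adjusted p = 0.0999), and without that library it was 0.36 and was called (adjusted p = 0.0103). The changes were -0.06 (-0.51 to 0.38) in A375 batch 1, 0.01 (-0.31 to 0.32) in SK-Hep1 and -0.00 (-0.15 to 0.15) in SKBR3-labelled cells, where median scaling gave -0.24 and a call (adjusted p = 0.0167).

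**Figure D3:**
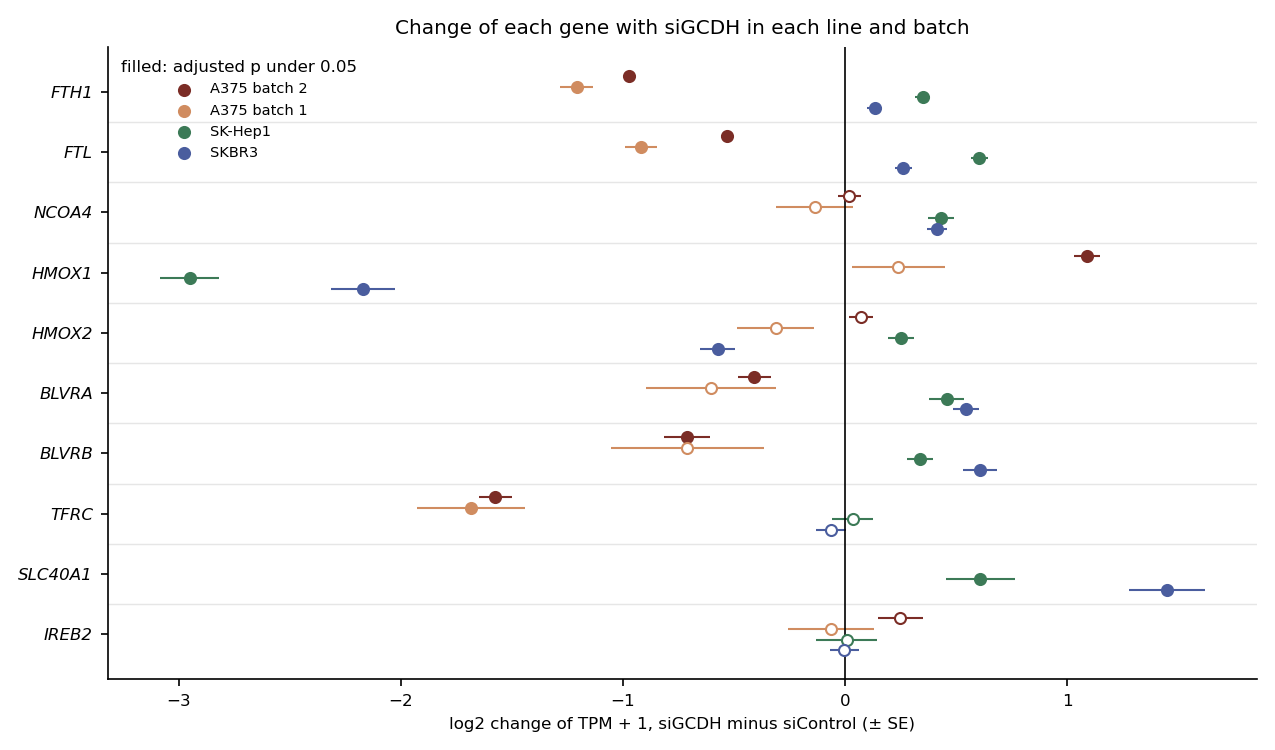
Log2 change with siGCDH of each gene in each line and batch, with SE as bars; filled points have an adjusted p under 0.05. HMOX1 is at 1.09 in A375 batch 2 and at -2.95 in SK-Hep1, and TFRC lies far below 0 only in the A375 batches (-1.57 and -1.69).

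The A375 batches were compared because they repeat the silencing with another kit. Over both, the mean changes of FTH1 (-1.09), FTL (-0.73), BLVRA (-0.51), BLVRB (-0.71) and TFRC (-1.63) were called lower and that of HMOX1 (0.67) higher, beside 16.1% of all genes lower and 7.32% higher. The BLVRA call (adjusted p = 0.0368) was lost in 15 of 24 alternatives and the BLVRB call (adjusted p = 0.0206) in 5 of 24; leaving out 1 library was enough in both. The batch 2 change minus the batch 1 change was called for FTL (0.39, adjusted p = 0.00791) and HMOX1 (0.85, adjusted p = 0.0110), 2 of 9 genes, beside 5.23% of all genes. The FTH1 difference was not called, but was in 3 of 24 alternatives, over which it ran from -1.72 to 0.30. That of HMOX2 was called in 1 of 24 (range 0.09 to 0.50). In batch 1, rows of the ribosomal RNA region of chromosome 21 took 33.0% of TPM in siGCDH and 17.1% in siControl, of a total that is fixed for each library. With those rows removed, neither batch difference was called (FTL 0.08, adjusted p = 0.565; HMOX1 0.56, adjusted p = 0.120). The batch 1 falls of FTH1 (-0.90), FTL (-0.61) and TFRC (-1.43) were still called then (adjusted p = 0.00155, 0.00585 and 0.0284). Batch and kit cannot be told apart.

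The change itself was then compared between lines of the full-length kit; these 3 comparisons share libraries pairwise. The A375 batch 2 change minus the SK-Hep1 change was called for 7 of 10 genes, beside 46.2% of all genes: FTH1 (-1.32), FTL (-1.14), NCOA4 (-0.41), BLVRA (-0.87), BLVRB (-1.05) and TFRC (-1.61) below 0 and HMOX1 (4.04) above. HMOX2 was called there without the first siGCDH library of either line (-0.21 in each), and SLC40A1 with a pseudocount of 5 (-0.24). Against SKBR3-labelled cells 9 of 10 were called, all but IREB2, beside 51.4% of all genes, with HMOX1 at 3.26, TFRC at -1.51 and FTH1 at -1.11. The SLC40A1 call there was lost after quantile normalization (adjusted p = 0.0905) and with a pseudocount of 0.1 (0.0926), and IREB2 was called under median scaling (0.48), after quantile normalization (0.38) and without the second siGCDH library of A375 batch 2 (0.36). The SK-Hep1 change minus the SKBR3-labelled change was called for 5 of 10, beside 39.5% of all genes: FTH1 (0.22), FTL (0.34) and HMOX2 (0.83) above 0, HMOX1 (-0.78) and SLC40A1 (-0.84) below. After quantile normalization the HMOX1 difference was -0.23 (adjusted p = 0.440) and SLC40A1 also lost its call (0.0643). BLVRB (-0.27, adjusted p = 0.0524) was called in 6 of 24 alternatives, among them those without the third siControl library of SK-Hep1, the first siControl library or the third siGCDH library of SKBR3-labelled cells. TFRC did not pass that test, with a difference of 0.10 (95% interval -0.17 to 0.37). In SKBR3-labelled cells the mitochondrially encoded share of TPM was 4.88% in siGCDH and 2.06% in siControl. It was 6.00% and 6.02% in SK-Hep1, where the groups overlapped, and 1.79% and 1.91% in A375 batch 2. In SKBR3-labelled cells 17174 genes were at 1 TPM or more in siGCDH and 15164 in siControl. These counts were 14766 and 14178 in SK-Hep1 and 15282 and 14930 in A375 batch 2. Apart from the SK-Hep1 share, none of these groups overlapped. The part of these shares and counts was not tested.

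In siControl cells the lines started from different levels, where line and batch cannot be told apart. FTH1 averaged 5965 ± 69.5 TPM in A375 batch 2, 1873 ± 31.2 TPM in SK-Hep1 and 1042 ± 14.5 TPM in SKBR3-labelled cells (SD, n = 3 each). FTL averaged 2654 ± 44.9, 3435 ± 89.3 and 551 ± 20.0 TPM in the same order. TFRC averaged 139 ± 2.44, 52.6 ± 3.75 and 119 ± 6.87 TPM, and BLVRB 29.1 ± 2.07, 117 ± 7.39 and 60.4 ± 4.82 TPM. A375 batch 2 and SK-Hep1 differed in 9 of 10 genes, all but HMOX1 (-0.05, 95% interval -0.19 to 0.09), beside 75.0% of all genes. HMOX1 was called under median scaling and quantile normalization (-0.23 in each), and the NCOA4 call was lost in 6 of 18 alternatives, among them those without the first or the third A375 library or the third SK-Hep1 library. A375 batch 2 and SKBR3-labelled cells differed in 8 of 10, not NCOA4 or BLVRA, beside 75.1% of all genes. The IREB2 call was lost in 8 of 18 alternatives, among them those without the second or the third A375 library or the first or the third SKBR3-labelled one, and the TFRC call in the joint fit (adjusted p = 0.164). SK-Hep1 and SKBR3-labelled cells differed in 8 of 10, not HMOX2 or SLC40A1, beside 79.3% of all genes. HMOX2 was called in 4 of 18 alternatives, among them that without the first SKBR3-labelled library, and SLC40A1 after quantile normalization (adjusted p = 0.0283). These member counts are close to the shares of all genes.

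Genes were ranked by likeness to FTH1, HMOX1 and TFRC, as Pearson's r of log2(TPM + 1) over the 18 full-length libraries. The ranking covered 11848 genes that average 5 TPM or more, and only those listed under an approved symbol could be named. The points share lines, batches and treatments, so r is a description only. FTH1 was most like SCCPDH (r = 0.976), ACY1 (0.970) and SLC5A3 (0.968). HMOX1 was most like MEMO1 (0.974), SZRD1 (0.972) and the glycolytic enzyme ENO1 (0.970). TFRC was most like the translation release factor GSPT1 (0.983), IARS2 (0.957) and RPS6KB2 (0.955). GSPT1 averaged 97.8 TPM in siGCDH and 212 TPM in siControl A375 batch 2, against 100.2 and 96.4 TPM in SK-Hep1.

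A wider list of 83 other iron and heme genes was counted in the same comparisons. Of 72 tested in A375 batch 2, 11 were higher and 18 lower, with a median change of -0.07, beside 17.9% of all genes higher and 15.7% lower. The batch 1 counts were 2 of 64 higher and 11 lower (median -0.42), beside 1.18% and 6.73%. In SK-Hep1, 24 of 72 were higher and 19 lower (median 0.15), beside 37.3% and 18.2%. In SKBR3-labelled cells 30 of 72 were higher and 18 lower (median 0.17), beside 47.3% and 14.7%. The medians of all genes given above were 0.02, -0.20, 0.18 and 0.29.

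Among the regulators, NFE2L2, which encodes NRF2, rose by 0.35 in A375 batch 2 (adjusted p = 0.00194), by 0.63 in A375 batch 1 (0.0388) and by 0.28 in SKBR3-labelled cells (0.00637), where median scaling gave 0.04 and no call. In SK-Hep1 its change was 0.09 (adjusted p = 0.212). BACH1 was not called in any pair, with changes of -0.05, 0.36, 0.21 and 0.06 in A375 batch 2, A375 batch 1, SK-Hep1 and SKBR3-labelled cells. Without the first siGCDH library the SK-Hep1 value was 0.33 and was called (adjusted p = 0.00360). The NRF2 partner MAFG rose in SK-Hep1 (0.99) and MAFK in A375 batch 2 (0.69).

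ACO1 encodes IRP1, the other iron-regulatory protein. It averaged 10.6 ± 0.49 TPM in siGCDH and 46.2 ± 1.27 TPM in siControl SK-Hep1 (-2.03, SE 0.07, adjusted p = 8.44e-07). It averaged 14.3 ± 0.42 and 28.04 ± 1.20 TPM in SKBR3-labelled cells (-0.93, SE 0.07, adjusted p = 3.31e-05). The A375 batch 2 means were 18.4 and 22.2 TPM (-0.26, adjusted p = 0.0445). FBXL5, which marks IRP2 for degradation when iron is plentiful, rose by 0.81 in SKBR3-labelled cells. The iron chaperone PCBP2 fell in both A375 batches (-0.47 and -0.67).

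Uptake genes other than TFRC also moved. SLC39A14, a carrier of iron not bound to transferrin, averaged 17.4 ± 1.16 TPM in siGCDH and 38.5 ± 0.46 TPM in siControl SK-Hep1 (-1.10), and 23.9 ± 0.82 and 45.1 ± 0.57 TPM in SKBR3-labelled cells (-0.89); in A375 batch 2 it was higher (0.31). CYBRD1, a ferric reductase, averaged 22.5 ± 1.44 TPM in siGCDH and 4.64 ± 0.61 TPM in siControl SKBR3-labelled cells (2.06). None of the 4 listed export and hepcidin genes passed the filter in any pair.

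Of 12 heme synthesis genes, 5 were lower and 1 higher in A375 batch 2, 2 lower and 10 not called in A375 batch 1, 4 lower and 4 higher in SK-Hep1, and 6 lower and 4 higher in SKBR3-labelled cells. The shares of all genes called lower were 15.7%, 6.73%, 18.2% and 14.7% in that order, and higher 17.9%, 1.18%, 37.3% and 47.3%. CPOX, coproporphyrinogen oxidase, fell in all 4 pairs (-0.53, -1.62, -0.35 and -0.55, in the order A375 batch 2, A375 batch 1, SK-Hep1, SKBR3-labelled); the batch 1 call was lost without the second or the third siControl library. UROS, an earlier enzyme of the pathway, fell in SK-Hep1 (-0.85). FECH, which inserts iron into heme and was chosen after its values were seen, averaged 6.16 ± 1.21 TPM in siGCDH and 23.6 ± 2.3 TPM in siControl SK-Hep1 (-1.79). The transporter ABCB10 fell in A375 batch 2 (-0.54) and rose in SK-Hep1 (0.54).

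In the ferroptosis list, SLC7A11, the cystine carrier, was lower in all 4 pairs, a pattern picked after its values were seen. It averaged 7.73 ± 1.36 TPM in siGCDH and 16.6 ± 1.12 TPM in siControl A375 batch 2, and 2.05 ± 0.10 and 8.80 ± 0.95 TPM in SK-Hep1. The log2 changes were -1.02, -1.27, -1.68 and -1.42 in the same order as for CPOX. CHAC1, which degrades glutathione, rose in A375 batch 2 (1.71) and batch 1 (1.57, adjusted p = 0.0471). In SKBR3-labelled cells GPX4, which reduces lipid peroxides, rose by 0.39. The iron-sulfur scaffold ISCU rose by 0.76 in SK-Hep1, and the ferredoxin reductase FDXR by 0.63 in A375 batch 2 and 0.58 in SK-Hep1. The heme-binding clock repressor NR1D1 rose by 1.16 in A375 batch 2 and by 0.99 in SK-Hep1. TFAP2C, a transcription factor, fell in both A375 batches (-0.75 in batch 1), as did BOLA3 in batch 1 (-0.65). In SKBR3-labelled cells the small heat shock protein gene HSPB1 rose by 0.64, and LYRM4 (-0.70) and PGRMC1 (-0.46) fell. The batch 1 calls of NFE2L2, CHAC1, CPOX, TFAP2C, PCBP2 and BOLA3 were each lost in at least 1 alternative that left out a single library. Over all alternatives, the batch 1 call of CHAC1 was lost in 13 of 17, that of BOLA3 in 10 of 18 and that of CPOX in 4 of 18. For genes of the wider list other than NFE2L2 and BACH1, alternatives were run only in the pairs where the gene was among the 4 smallest adjusted p-values of its direction. The values of FECH, of CPOX in SK-Hep1 and SKBR3-labelled cells, of ABCB10 in SK-Hep1, of ACO1 and SLC39A14 in A375 batch 2, of TFAP2C in A375 batch 2, and of SLC7A11 in A375 batch 1 and SKBR3-labelled cells have none.

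**Figure D4:**
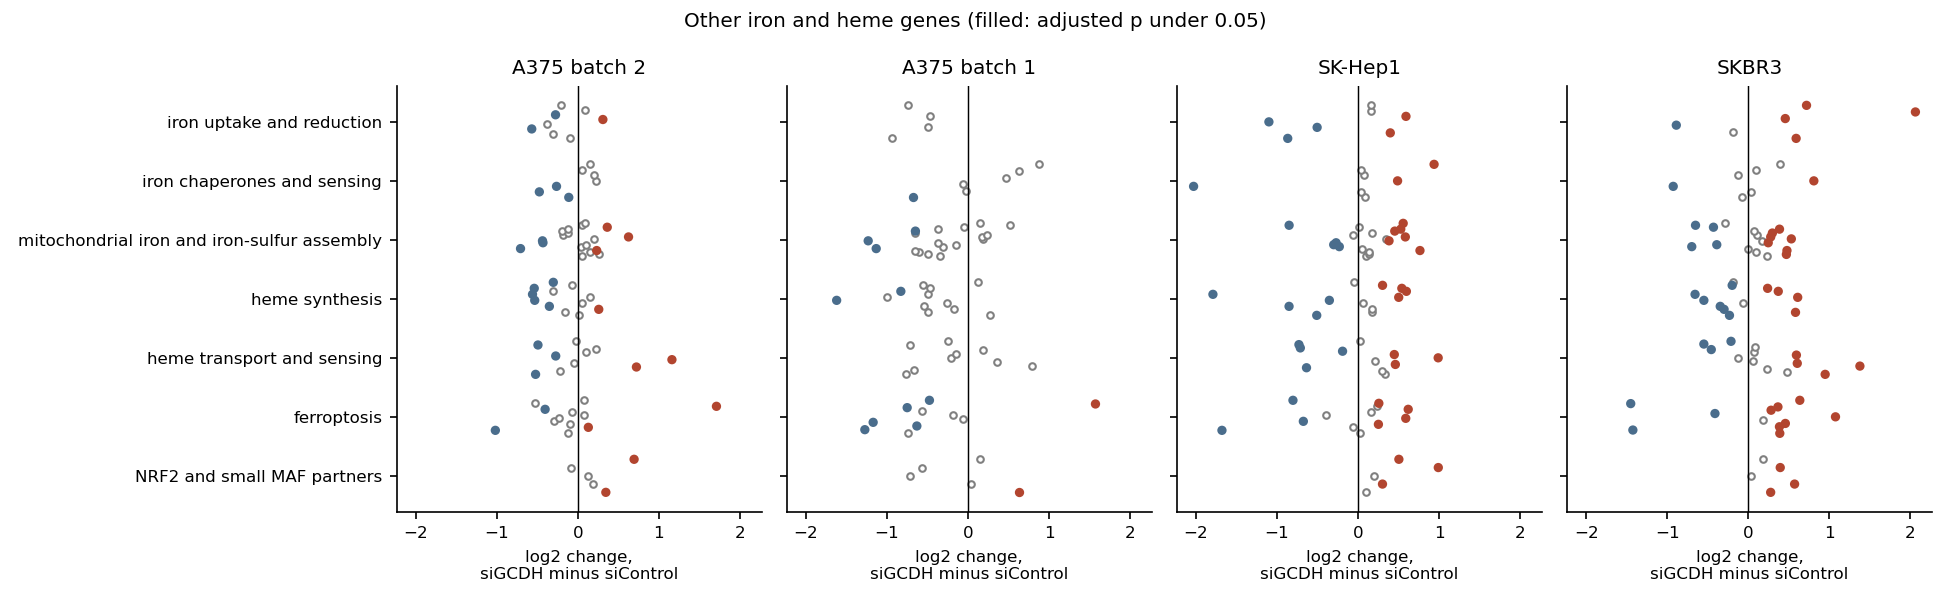
Log2 change with siGCDH of the other iron and heme genes that were tested, 1 point a gene, by list (rows) and line or batch (panels); filled points have an adjusted p under 0.05, red higher and blue lower. ACO1 is the leftmost point in SK-Hep1, at -2.03, and CYBRD1 the rightmost in SKBR3, at 2.06.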

How the data were processed

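The authors deposited a table of TPM values, 60504 rows by 24 libraries. The tools, per the submitters' processing notes, include RSEM 1.3.1, STAR 2.7.0d and cutadapt 2.3, with hg38 as genome. No annotation release or strand setting is named. Each line or batch (6 libraries) was fitted on its own with limma 3.58.1 (R 4.3.3; lmFit, eBayes with trend) on log2(TPM + 1), keeping genes that average 1 TPM or more, with two-sided p-values adjusted by Benjamini-Hochberg over all of them; differences between lines and batches are interaction terms over 12 libraries. limma's procedure was tested on simulated data. The simulated errors were independent and held no shift of all genes, so that test does not bear on technical replication or scaling. Ratios and sums were compared by exact permutation. All 10 genes, GCDH, NFE2L2 and BACH1 are named; of the wider list, the 4 called genes of each direction with the smallest adjusted p per pair were eligible. Members and lists were chosen with earlier results of these data known. Elements came from GENCODE 29 transcripts with a Python 3.11.15 script. Alternatives were other pseudocounts (0.1, 5), filters, scalings, variance settings, a replicate block, a joint fit and leaving out each library.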

Additional observations from a re-analysis of the deposited data

Results flagged for a closer look

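The effect of siGCDH differed between lines or batches, by the interaction test, in 23 gene and comparison pairs. The A375 batch 2 change minus the batch 1 change was 0.39 for FTL and 0.85 for HMOX1. Minus the SK-Hep1 change, it was -1.32 for FTH1, -1.14 for FTL, -0.41 for NCOA4, 4.04 for HMOX1, -0.87 for BLVRA, -1.05 for BLVRB and -1.61 for TFRC. Minus the change in SKBR3-labelled cells, it was -1.11 for FTH1, -0.80 for FTL, -0.39 for NCOA4, 3.26 for HMOX1, 0.64 for HMOX2, -0.95 for BLVRA, -1.32 for BLVRB, -1.51 for TFRC and -1.22 for SLC40A1. The SK-Hep1 change minus that in SKBR3-labelled cells was 0.22 for FTH1, 0.34 for FTL, -0.78 for HMOX1, 0.83 for HMOX2 and -0.84 for SLC40A1. The comparisons share libraries, so they are not independent of each other. Groups of 3 were too small to look for single libraries that stand apart.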

How the results depend on the processing

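Of 3276 single-gene values under the alternatives, 3128 kept their side of the threshold, 65 of these with a change of sign while called in neither setting; 110 lost a call, 36 gained one, and 2 called values changed sign: FTH1 in SKBR3-labelled cells (-0.11 under median scaling) and the FTL batch difference (-0.13 after quantile normalization); the cause was not tested. Batch 1 of A375 had calls for 3 of the 10 genes, but 1 without the trend and 6 in the joint fit; of the wider list 13 were called, but 6 without a filter, 3 after quantile normalization or median scaling, 4 without ribosomal rows, 1 without the trend, 41 in the joint fit, and 0 to 5 with 1 library left out (0 without the second siControl library). The A375 batch 2 list had 29 calls, and 17 in the joint fit. The batch difference was called for 2 genes, but for 1 after quantile normalization or without the trend, 0 under median scaling or without ribosomal rows, and 4 in the joint fit. For all genes, A375 mean calls were 1080 higher and 2383 lower, and 1505 and 1499 under median scaling. With pseudogene rows added, the log2 FTH1 to FTL difference in SKBR3-labelled cells was -0.16; summed pseudogene rows under median scaling differed by -15.98 TPM in A375 batch 1, 14.85 in SK-Hep1 and 9.68 in SKBR3-labelled cells. Deviations of same-numbered libraries correlated at -0.06 to 0.14 and those of differently numbered ones at -0.10 to 0.11. With 3 libraries a group, this cannot tell whether the numbers mark pairs. With a replicate block the wider list in batch 1 had 1 call and the batch difference 1 gene. Depth is unknown, and values of a few TPM carry an error that cannot be given.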
